A study of Mus musculus with 31 samples.

Results

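The genes described here are the interleukins and the chains of their receptors, chosen by name: every gene on the array whose symbol is Il followed by a number, with or without further letters and digits. The array carried 148 probes for 82 such genes, of 24884 genes in all, and 71 of the 82 genes passed the filter on low signal and were tested among 19837 genes. By family and tested number, these were 17 genes of the IL-1 family (6 agonists, 4 antagonists or binding proteins and 7 receptor chains), 12 of the IL-6 and IL-12 families (5 cytokines, 7 receptor chains), 11 of the IL-10 family (5 and 6), 8 of the IL-17 family (3 and 5), 13 of the common gamma chain family (5 and 8), 7 of the type 2 and IL-3 family (2 and 5), and Il16, Il34 and Il4i1. The 11 genes below the filter were Il9, Il5, Il31, Il17c and Il1bos, not well above background on any of the 31 arrays, and Il25, Il1rapl1, Il1f9, Il23a, Il17b and Il1rapl2, well above background on 1 to 7 arrays. No change is given for these 11. Of the 71 tested genes, 52 were well above background on all 31 arrays. In 6 tested genes 1 group alone met the filter, CRC at 7 days for Il1a and Il23r, CRC at 14 days for Il20ra, and CRC + E171 at 2 days for Il1f5, Il1f10 and Il3, so a difference that sets that group higher was favoured by the filter.

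All mice were BALB/c, 4 to 6 weeks old at the start, and all received azoxymethane (AOM), a colon carcinogen, and then 2% dextran sodium sulphate (DSS), which injures the colon epithelium, in the drinking water until day 5; this combination is the colitis-associated colorectal cancer (CRC) model. The CRC groups were gavaged with water and the CRC + E171 groups with 5 mg/kg bw/day of E171, the food-grade titanium dioxide used as a white colorant, on 5 days a week. Distal colon was taken after 2, 7, 14 or 21 days, which gave 8 groups of 4 mice (2 males and 2 females), except CRC at 21 days with 3 mice (1 male), and 1 array per mouse. The question put to these data was how E171 shifted the transcriptome of the colon before tumours were visible, so each CRC + E171 group was set against the CRC group of the same day.

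Interleukins are secreted signals between leucocytes, stromal cells and epithelium. Agonists of the IL-1 family act through receptors that recruit MyD88 and activate NF-kappaB, and are held in check by receptor antagonists, decoy receptors and binding proteins. IL-6 and IL-11 signal through the shared chain gp130 (Il6st) to STAT3 and drive acute phase responses and epithelial regrowth, IL-10 restrains macrophages, IL-17A and IL-17F make the epithelium release neutrophil attractants and antimicrobial proteins, and IL-22 acts mainly on epithelial cells. Cytokines of the common gamma chain (Il2rg) keep lymphocytes alive. In DSS colitis these signals follow epithelial injury and come from infiltrating leucocytes as well as from resident cells. In bulk tissue, fewer cells of a type and less RNA per cell cannot be told apart.

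Promoters were taken from RefSeq (GRCm38.p6), which held 80 promoters of 65 of the 82 genes; the reference mouse is C57BL/6J, not BALB/c. The 250 bases before the start are given for 4 of the 5 genes whose response at 7 days differed between sexes (the fifth is Il10): Il6 (chr5:30012864-30013113, plus strand), Il11 (chr7:4778142-4778391, minus strand, 1 of 2 listed starts), Il1r1 (chr1:40224830-40225079, plus strand, 1 of 2 listed starts) and Il18 (chr9:50554450-50554699, plus strand). Capitals mark matches to letters searched on both strands: kappaB as GGGA, any base, then TTTCC, AP-1 as TGANTCA, C/EBP as TTGCNNAA and STAT as TTCNNNGAA.
Il6: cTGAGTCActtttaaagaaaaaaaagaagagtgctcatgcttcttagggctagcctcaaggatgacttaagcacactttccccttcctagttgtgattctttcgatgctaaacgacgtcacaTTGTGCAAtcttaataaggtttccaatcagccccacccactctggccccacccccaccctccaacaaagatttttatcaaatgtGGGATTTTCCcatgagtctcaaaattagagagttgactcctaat
Il11: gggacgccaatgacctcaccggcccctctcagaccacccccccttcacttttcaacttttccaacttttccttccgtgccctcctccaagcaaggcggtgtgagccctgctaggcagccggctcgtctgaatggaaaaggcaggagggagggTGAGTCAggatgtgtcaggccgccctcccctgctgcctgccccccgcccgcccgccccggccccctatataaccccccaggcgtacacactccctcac
Il1r1: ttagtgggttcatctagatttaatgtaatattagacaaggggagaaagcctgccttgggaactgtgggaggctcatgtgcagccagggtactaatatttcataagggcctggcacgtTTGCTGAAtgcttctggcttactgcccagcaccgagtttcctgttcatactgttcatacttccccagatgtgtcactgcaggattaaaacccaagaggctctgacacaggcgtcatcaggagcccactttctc
Il18: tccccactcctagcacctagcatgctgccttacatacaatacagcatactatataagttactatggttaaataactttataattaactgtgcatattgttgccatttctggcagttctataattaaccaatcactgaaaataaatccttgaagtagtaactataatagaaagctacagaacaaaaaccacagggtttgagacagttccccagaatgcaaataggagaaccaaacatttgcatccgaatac
In Il6 the first capitals are the AP-1 match, the second the C/EBP match, which lies on the other strand, and the last the kappaB match, 44 to 35 bases before the start. Il11 held 1 AP-1 match, Il1r1 1 C/EBP match and Il18 none of the 4, and the other listed start of Il11 and that of Il1r1, not printed, held none of the 4 either. Over the 80 promoters, 2 held kappaB (the other is Il16), against 0.356% of all 32851 promoters of this length; 14 held AP-1, against 6.75%; 14 held C/EBP, against 9.56%; and 9 held STAT, against 7.02%. A match describes letters only, and its absence says only that these letters are not in this window.

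Levels are given below as log2 of the background-subtracted signal over the 75th percentile of the same array, so 0 is that percentile and 1 unit is a doubling, and levels are compared only within a gene. The share of spots that rose well above background was 67.4 to 78.9% per array, and the colon genes Epcam, Cdh1, Vil1, Cdx2, Muc2 and Car1 were well above background on all 31. Both CRC males of 7 days and CRC + E171 14 days male 2 were high in the neutrophil list, at 4.22, 5.29 and 2.63 against -1.31 to 0.61 on the other 28 arrays, and low in the colonocyte list, at -6.92, -4.44 and -3.93 against -0.69 to 1.91 (list values are medians over genes, relative to each gene's mean over arrays). Pancreatic acinar genes were high on 5 arrays: CRC 2 days male 2 (5.55), CRC 7 days female 1 (7.39) and male 2 (8.07), CRC + E171 2 days female 2 (9.85) and CRC + E171 21 days female 2 (9.93). Skeletal muscle genes were at 6.80 on CRC 7 days male 1 and at most 1.5 on the others. No CRC + E171 array of 7 days was high in either list, and without the 5 acinar arrays 19 members were DEG at 7 days, among 3687 of all genes; the part of skeletal muscle was not tested. The array labelled CRC 14 days male 2 had Xist at -1.58, within the range of the labelled females (-2.33 to -0.69) and outside that of the other labelled males (-8.51 to -6.51), so it goes against its label.

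**Figure D1:**
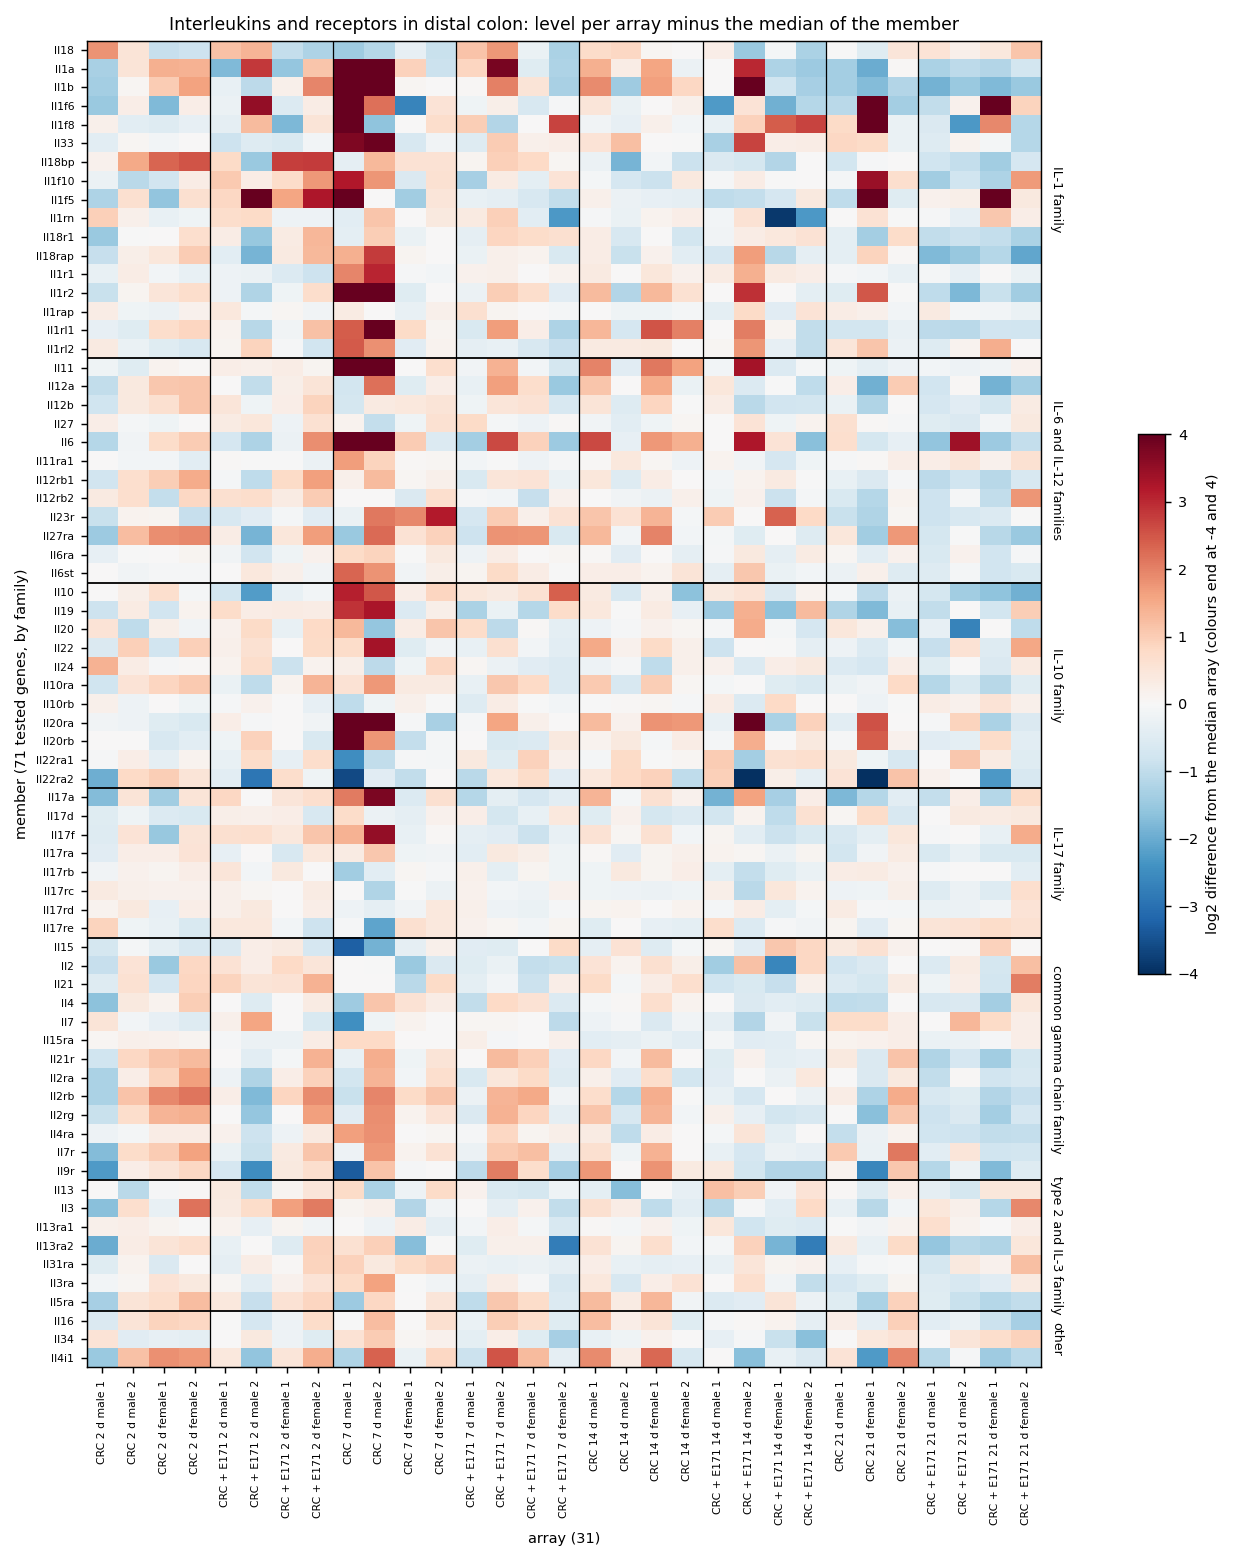
Each row is 1 of the 71 tested genes, grouped by family, and each column 1 of the 31 arrays; the colour is the log2 level minus the median of the gene over arrays, with colours ending at -4 and 4. The 2 CRC male arrays of 7 days carry the darkest red in the IL-1, IL-6 and IL-10 families, and CRC + E171 14 days male 2 shows red in many of the same rows.

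After 2 days, while DSS was still being given, 0 of the 71 genes were differentially expressed genes (DEG), defined as a linear fold change of 1.5 or more with an unadjusted limma p under 0.05; over all tested genes the share was 1.76%. No member reached an unadjusted p under 0.05 in limma, and no Benjamini-Hochberg adjusted p was under 0.05, and the members' median log2 fold change was -0.02. The genes of acute inflammation had arrays of both groups in the same range: the level of Il1b was -4.58 and -3.13 in the CRC males, -2.22 and -1.61 in the CRC females, -3.52 and -4.27 in the CRC + E171 males and -3.01 and -1.26 in the CRC + E171 females, and that of Il6 was -8.03 and -7.05 in the CRC males, -6.17 and -5.89 in the CRC females, -7.58 and -8.14 in the CRC + E171 males and -7.15 and -5.05 in the CRC + E171 females. All 8 receptor chains of the common gamma family had fold changes below 0, their median being -0.37 (log2), with no DEG among them. The T cell marker list described with the 21-day results lay at -2.01 to 2.00 (median 1.46) in CRC and at -1.99 to 1.75 (median 0.40) in CRC + E171 on that day; its part in this shift was not tested. In a fit that left out the 3 arrays high in neutrophil genes, none of which is an array of 2 days, 4 members were DEG at 2 days, among 445 of all genes: Il10 (-1.06, SE 0.49), Il17f (0.96, SE 0.40), Il1f10, at least 1.13-fold higher, and Il1f5, at least 3.32-fold higher. Neither of the last was well above background on any CRC array of 2 days, and both are among the genes that met the filter through CRC + E171 at 2 days alone, so the filter favoured these calls. For Il10 the CRC + E171 group of 2 days did not meet the filter, so its low side lies close to background.

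After 7 days, 2 days after the end of DSS, 15 of the 71 genes (21.1%) were DEG, 2 up- and 13 down-regulated, against 12.4% of all tested genes. The median log2 fold change of the members was -0.32, with 55 of 71 lower in CRC + E171, and that of all genes was -0.01. None of the 15 passed the adjusted threshold (smallest adjusted p = 0.197, limma). The down-regulated genes were 3 receptor chains of the IL-1 family, 4 genes of the IL-6 and IL-12 families, Il19, Il17a, Il17f, Il31ra, Il3ra and Il34, and the up-regulated genes were Il15 and Il22ra1. Without the 3 arrays high in neutrophil genes, 2 CRC arrays remained at 7 days and 2 of the 71 genes were DEG, Il23r and Il31ra, against 531 of all genes. In that fit the sign of the 7-day value turned in 27 of the 71 genes, 21 of them from lower to higher with E171, and 1 of the 27, Il1r1, was among the 15. The count was 7 when either CRC male was left out, and 30 and 24 when CRC female 1 or female 2 was left out, where 9 and 5 members passed the adjusted threshold. Counts over all genes in these fits are not reported here, so no share stands beside them.

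In the IL-1 family 3 of 17 genes were DEG, all down-regulated, and the family's median log2 fold change was -1.46. Il1r1, the signalling receptor for IL-1 alpha and beta, was at 2.06 and 3.14 in the CRC males, 0.05 and -0.01 in the CRC females, 0.27 and 0.30 in the CRC + E171 males and 0.10 and 0.23 in the CRC + E171 females. Only the CRC males lay outside the range of the other 6 arrays, and the log2 fold change was -1.08 (adjusted p = 0.224, SE 0.43); without the 3 arrays it was 0.20 (SE 0.18), which turns its direction. Il1rl1, the receptor for IL-33 (ST2), was at -1.46 and 0.94 in the CRC males, -3.12 and -3.75 in the CRC females, -4.47 and -2.19 in the CRC + E171 males and -3.59 and -5.12 in the CRC + E171 females, with a log2 fold change of -1.99 (adjusted p = 0.234, SE 0.81). For Il1rl2, the receptor for the IL-36 cytokines, the log2 fold change was -1.55 (adjusted p = 0.207, SE 0.55). The agonists did not pass the test at a p under 0.05. Il1b, the main secreted agonist, was at 1.28 and 2.38 in the CRC males, -3.15 and -3.22 in the CRC females, -3.18 and -1.2 in the CRC + E171 males and -2.71 and -4.53 in the CRC + E171 females, a log2 fold change of -2.23 (SE 1.16), and Il33, an alarmin kept in the nuclei of stromal and epithelial cells, at 0.83 and 1.02 in the CRC males, -3.56 and -3.05 in the CRC females, -3.42 and -1.91 in the CRC + E171 males and -2.70 and -2.65 in the CRC + E171 females, a change of -1.48 (SE 0.78). In both genes the CRC males were higher than every other array of that day and the remaining 6 arrays overlapped, and without the 3 arrays the values turned to 0.28 (SE 0.89) for Il1b and 0.64 (SE 0.46) for Il33. Values for Il1a, the cell-bound agonist, and Il1r2, the decoy receptor, were -2.08 (SE 1.30) and -1.80 (SE 0.92), and turned to 0.71 (SE 1.19) and 0.50 (SE 0.71) without the 3 arrays. Il1rn, the receptor antagonist, had 1 low array in CRC + E171: its levels were -0.41 and 1.12 in the CRC males, 0.01 and 0.39 in the CRC females, 0.37 and 0.95 in the CRC + E171 males and -0.42 and -2.30 in the CRC + E171 females, and its fold change was -0.63 (SE 0.68). Il18, which the epithelium makes constitutively, was not DEG and was the only agonist with a fold change above 0, at 1.69 and 1.97 in the CRC males, 2.79 and 2.22 in the CRC females, 4.27 and 4.85 in the CRC + E171 males and 2.86 and 1.86 in the CRC + E171 females, a change of 1.29 (adjusted p = 0.307, SE 0.64).

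In the IL-6 and IL-12 families 4 of 12 genes were DEG, all down-regulated. Il6 had the largest log2 fold change of the 71 genes on that day: its level was 2.12 and 2.71 in the CRC males, -5.89 and -7.46 in the CRC females, -8.26 and -4.26 in the CRC + E171 males and -5.98 and -8.35 in the CRC + E171 females. Its log2 fold change was -4.58 (adjusted p = 0.208, SE 1.66), yet the CRC females lay within the range of the CRC + E171 arrays, and without the 3 arrays the value was -0.04 (SE 1.25). The signal of Il6 passed the scanner's well-above-background flag in 2 of the 4 CRC + E171 mice and in 3 of the 4 CRC mice. Il11, a gp130 cytokine of stromal cells, followed the same arrays, at 2.47 and 4.29 in the CRC males, -3.06 and -2.38 in the CRC females, -3.20 and -1.66 in the CRC + E171 males and -3.16 and -3.77 in the CRC + E171 females, with a log2 fold change of -3.28 (adjusted p = 0.197, SE 1.05) and of -0.23 (SE 0.51) without the 3 arrays. The receptor for IL-11, Il11ra1, was at 4.36 and 3.59 in the CRC males, 2.73 and 2.78 in the CRC females, 2.57 and 2.67 in the CRC + E171 males and 2.48 and 2.64 in the CRC + E171 females, so that the groups did not overlap, and its log2 fold change was -0.78 (adjusted p = 0.197, SE 0.24); without the 3 arrays it was -0.17 (SE 0.19). Il6st and Il6ra, the shared and the specific chain of the IL-6 receptor, had values of -0.76 (SE 0.37) and -0.47 (SE 0.24) and were not DEG; without the 3 arrays these were 0.25 (SE 0.22), which turns its direction, and -0.15 (SE 0.27). Il23r, the specific chain of the IL-23 receptor on type 17 lymphocytes, behaved differently by array: its level was -7.72 and -5.33 in the CRC males, -5.53 and -4.27 in the CRC females, -8.12 and -6.42 in the CRC + E171 males and -7.24 and -6.87 in the CRC + E171 females. CRC female 2 was highest and CRC male 1 within the range of the CRC + E171 arrays. It was not well above background on any CRC + E171 array and was so on 3 of 4 CRC arrays, so the difference is a bound, at least 1.53-fold lower with E171 (fitted log2 fold change -1.45 (adjusted p = 0.214, SE 0.54)), and the gene passed the filter on low signal through the CRC group of 7 days alone, so the filter favoured this call; a bound sets the mean of the bright group against the lowest signal well above background on each array of the dim group, or the probe's own signal where higher. Il12b, the chain shared by IL-12 and IL-23, had a value of -0.08 (SE 0.41).

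**Figure D2:**
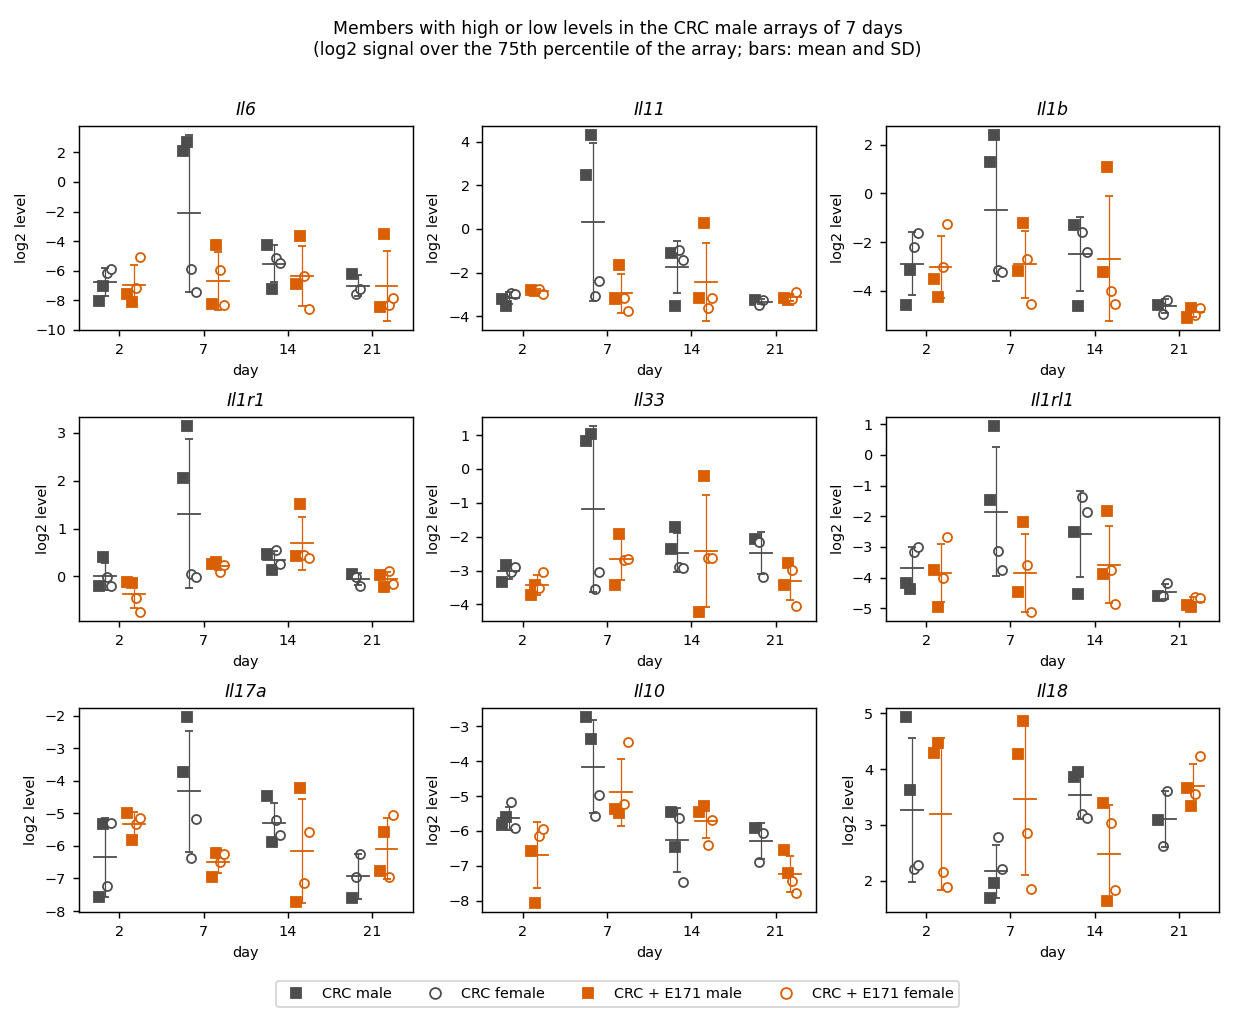
Log2 level over the 75th percentile of the array (y axis) by day (x axis) for 9 genes; squares are males, circles females, grey CRC and orange CRC + E171, and bars give mean and SD. In Il6, Il11, Il1b, Il1r1 and Il33 the 2 CRC male squares of 7 days lie above all other arrays, and in Il18 the CRC arrays of 7 days lie at 1.69 to 2.79.

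Of the 11 genes of the IL-10 family, Il19 was down-regulated and Il22ra1 up-regulated. Il19, made by myeloid and epithelial cells, was at -2.36 and -1.99 in the CRC males, -5.80 and -5.01 in the CRC females, -6.50 and -5.51 in the CRC + E171 males and -6.38 and -4.51 in the CRC + E171 females, a log2 fold change of -1.94 (adjusted p = 0.217, SE 0.73). Il22ra1, the epithelial chain of the IL-22 receptor, was at -4.51 and -3.03 in the CRC males, -2.08 and -2.13 in the CRC females, -1.66 and -2.51 in the CRC + E171 males and -1.11 and -1.85 in the CRC + E171 females; the CRC males were the lowest arrays of the day and the other 6 overlapped, with a log2 fold change of 1.16 (adjusted p = 0.248, SE 0.49). Il10 itself, the regulatory cytokine, had a value of -0.73 (SE 0.56), Il22 of -0.91 (SE 0.60) and its soluble antagonist Il22ra2 of 1.16 (SE 1.2), and none was DEG. In the fit without the 3 arrays Il10 and Il22 turned to 0.39 (SE 0.60) and 0.27 (SE 0.56), and Il22ra2 was 0.39 (SE 1.14). The values of the IL-10 receptor chains Il10ra and Il10rb were -0.50 (SE 0.48) and 0.16 (SE 0.23).

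Both measured inflammatory ligands of the IL-17 family were down-regulated at 7 days and none of the 5 receptor chains was. Il17a was at -3.73 and -2.04 in the CRC males, -6.37 and -5.17 in the CRC females, -6.96 and -6.21 in the CRC + E171 males and -6.50 and -6.25 in the CRC + E171 females, with a log2 fold change of -2.15 (adjusted p = 0.202, SE 0.75), and Il17f at -4.32 and -2.21 in the CRC males, -6.00 and -5.65 in the CRC females, -6.06 and -6.17 in the CRC + E171 males and -6.57 and -6.01 in the CRC + E171 females, with -1.66 (adjusted p = 0.202, SE 0.56). The groups did not overlap in Il17f. The signal of each ligand passed the same flag in 1 of the 4 CRC + E171 mice and in 3 of the 4 CRC mice, so these folds run close to background. Neither ligand was DEG without the 3 arrays high in neutrophil genes. The receptor chain Il17ra, shared by the receptors of several IL-17 cytokines, had a value of -0.26 (SE 0.28). Among the remaining families, Il15, which supports intraepithelial lymphocytes and is made by epithelium, was at -3.15 and -1.75 in the CRC males, -0.23 and 0.32 in the CRC females, -0.33 and -0.36 in the CRC + E171 males and 0.13 and 0.89 in the CRC + E171 females; its log2 fold change of 1.28 (adjusted p = 0.224, SE 0.50) was 0.03 (SE 0.39) without the 3 arrays. Il31ra, the receptor chain for IL-31, was at -5.70 and -6.22 in the CRC males, -5.86 and -5.68 in the CRC females, -6.85 and -6.91 in the CRC + E171 males and -6.84 and -6.98 in the CRC + E171 females, with no overlap between groups and a log2 fold change of -1.03 (adjusted p = 0.197, SE 0.29); it was -1.12 (SE 0.35) without the 3 arrays, but 0.013 after another background correction (normexp) and -0.0083 when the brightest probe stood for the gene. Il34, a ligand of the macrophage receptor Csf1r, was lower by a log2 fold change of -0.93 (adjusted p = 0.207, SE 0.33), and Il3ra, the specific chain of the IL-3 receptor, of -0.75 (adjusted p = 0.298, SE 0.36). The call of Il3ra was lost in 11 of 19 alternatives, and neither gene was DEG without the 3 arrays. Il13, Il13ra1, Il4ra, Il7, Il7r, Il15ra and Il2rg had values from -0.61 to 0.40 and were not DEG.

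**Figure D3:**
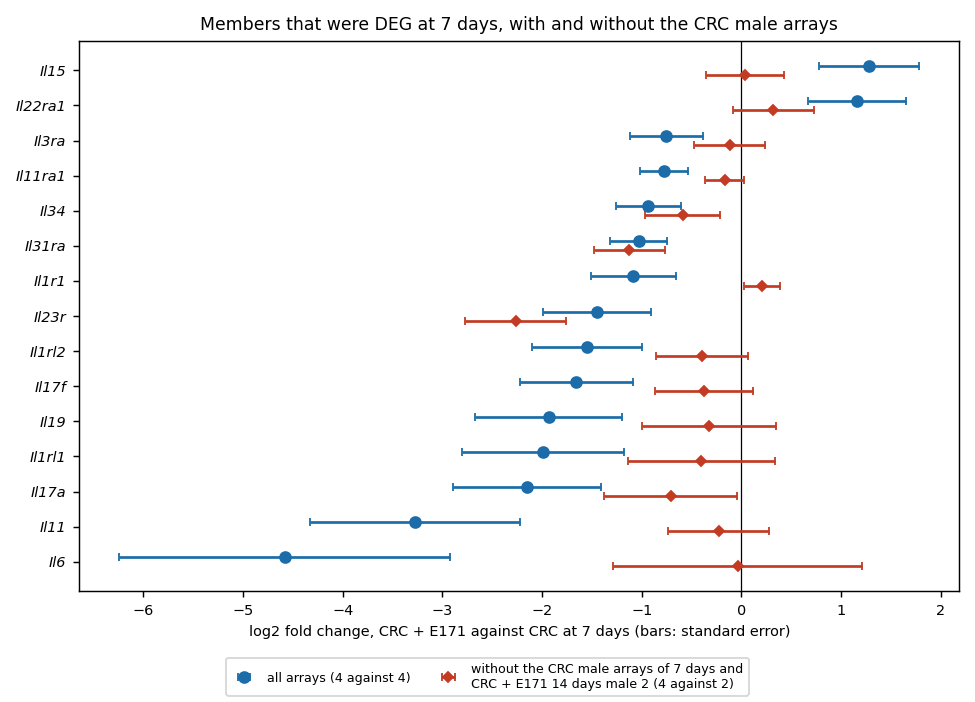
Log2 fold change of CRC + E171 against CRC at 7 days for the 15 DEG, with all arrays (blue circles, 4 against 4) and without the 3 arrays high in neutrophil genes (red diamonds, 4 against 2); bars are standard errors. Il23r and Il31ra stay below -1, Il1r1 turns from -1.08 to 0.20, and Il6 moves from -4.58 to -0.04.

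Whether the response at 7 days differed between sexes was tested in a limma fit over 16 groups of treatment, day and labelled sex. The difference, males minus females, made 22 of 71 members DEG (5 higher, 17 lower) against 18% of all genes, and 5 members passed the adjusted threshold, with 718 of all 19837 genes. These were Il1r1 (-2.46 (SE 0.47), adjusted p = 0.00912), Il11 (-5.07 (SE 1.22), adjusted p = 0.0297), Il6 (-8.19 (SE 2.16), adjusted p = 0.0441), Il10 (-3.33 (SE 0.88), adjusted p = 0.0451) and Il18 (2.87 (SE 0.77), adjusted p = 0.0472). In a fit of the 8 arrays of 7 days alone, 20 members were DEG, among 2821 of all genes, and none passed the adjusted threshold. The probes lie on mm9 at chr1:40372667-40372726 (Il1r1), chr7:4724847-4724906 (Il11), chr5:30346367-30346426 (Il6), chr1:132920943-132921002 (Il10) and chr9:50389886-50389942 (Il18). The levels of Il10 on that day were -2.73 and -3.35 in the CRC males, -5.58 and -4.97 in the CRC females, -5.38 and -5.49 in the CRC + E171 males and -5.23 and -3.45 in the CRC + E171 females, with the CRC males highest among males and a CRC + E171 female highest among females.

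In males alone (2 against 2 arrays) 34 of 71 members were DEG, 28 of them down-regulated, against 27.2% of all genes, and 21 passed the adjusted threshold, with 3020 of all genes, for a comparison whose smallest exact permutation p is 0.333. Il6 changed by -8.68 (SE 1.52), Il11 by -5.81 (SE 0.86), Il20ra, a receptor chain for IL-19, IL-20 and IL-24, by -4.33 (SE 1.09), Il1b by -4.02 (SE 1.15), Il1r2 by -3.98 (SE 0.92) and Il33 by -3.59 (SE 0.81). Il18 rose by 2.73 (SE 0.54) and Il15 by 2.11 (SE 0.49). The ligands Il17a and Il17f were not well above background in either CRC + E171 male, and their levels there were at least 8.87-fold and 6.78-fold lower. In females alone 4 of 71 members were DEG, all down-regulated, against 2.03% of all genes: Il1rn (-1.56, SE 0.58), Il31ra (-1.14, SE 0.41), Il34 (-1.01, SE 0.35) and Il23r, at least 3.28-fold lower. None passed the adjusted threshold (limma), and among all genes none did. The call of Il23r was favoured by the filter on low signal, which it met through CRC at 7 days alone. The CRC males of 7 days are also the arrays with the high neutrophil and low colonocyte lists, so sex and this state of the tissue cannot be told apart here.

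18 genes had both CRC males of 7 days above all 29 other arrays, of 71, against 5.44% of all genes: Il1a, Il1b, Il1r1, Il1r2, Il1rl2 and Il33 of the IL-1 family, Il6, Il6ra, Il6st, Il11 and Il11ra1, Il10, Il19 and Il20ra, Il17a, Il4ra, Il15ra and Il3ra. Only Il15 had both below all others, against 7.3% of all genes. CRC + E171 14 days male 2, the third array of this kind, was above the other 28 arrays in 14 of 71 members, against 12.6% of all genes, 11 of them among the 18, where all genes had 464 of 1080: Il11, Il17a, Il19, Il1b, Il1r1, Il1r2, Il1rl2, Il20ra, Il33, Il3ra and Il6st. On that array Il1b was at 1.06, Il33 at -0.22, Il11 at 0.26 and Il6 at -3.68. Il6 on this array stayed below both CRC males of 7 days, at 2.12 and 2.71, and below CRC + E171 21 days male 2, at -3.51. It was below the other 28 in 9 of 71 members, a share near the 11.6% of all genes: Il10rb, Il13ra1, Il15ra, Il17rb, Il17rc, Il18, Il22ra1, Il22ra2 and Il7.

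After 14 days 3 of 71 members (4.23%) were DEG, against 6.34% of all genes, and none passed the adjusted threshold (smallest adjusted p = 0.525, limma). Il13, the type 2 cytokine of goblet cell responses, was at -4.89 and -6.19 in the CRC males, -4.49 and -4.81 in the CRC females, -3.30 and -3.50 in the CRC + E171 males and -4.63 and -3.95 in the CRC + E171 females, with a log2 fold change of 1.25 (adjusted p = 0.525, SE 0.44). The lowest CRC value, -6.19, came from the array that goes against its sex label, and without it the value was 0.89 and no longer passed. Il17rb, a receptor chain for IL-25, was at -3.39 and -2.82 in the CRC males, -3.11 and -2.96 in the CRC females, -3.62 and -4.16 in the CRC + E171 males and -3.69 and -3.48 in the CRC + E171 females; the groups did not overlap and the log2 fold change was -0.67 (adjusted p = 0.525, SE 0.23). Il1rn was at -0.05 and -0.25 in the CRC males, 0.16 and 0.27 in the CRC females, -0.11 and 0.60 in the CRC + E171 males and -3.86 and -2.30 in the CRC + E171 females, with the CRC + E171 females low and the males not, and a log2 fold change of -1.45 (adjusted p = 0.604, SE 0.68). Those females were also low in the mast cell list, at -2.07 and -3.33, as was CRC + E171 7 days female 2 at -3.54, the array with Il1rn at -2.30; the part of this list in the result was not tested. Without the 3 arrays, of which CRC + E171 14 days male 2 is 1, there were 11 DEG members among 2796 of all genes: Il13 (1.14, SE 0.44) and Il15 (0.76, SE 0.34) up, and Il11 (-1.56, SE 0.45), Il17a (-1.51, SE 0.59), Il20ra (-1.46, SE 0.62), Il1rl1 (-1.58, SE 0.65), Il1rn (-2.12, SE 0.66), Il34 (-0.89, SE 0.33), Il22, Il2 and Il13ra2 down.

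Il11 shows what that array carries at 14 days: its levels were -1.09 and -3.52 in the CRC males, -0.95 and -1.44 in the CRC females, -3.18 and 0.26 in the CRC + E171 males and -3.60 and -3.15 in the CRC + E171 females, with 3 CRC arrays and CRC + E171 male 2 high, and the log2 fold change over all arrays was -0.67 (SE 1.05).

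After 21 days 4 of 71 members (5.63%) were down-regulated and none up-regulated, against 2.68% of all genes in either direction, with no adjusted p under 0.05 (smallest 0.849, limma). Il21r, the receptor for the T cell cytokine IL-21, was at -2.10 in the CRC male, -3.07 and -1.35 in the CRC females, -3.67 and -3.16 in the CRC + E171 males and -3.86 and -3.17 in the CRC + E171 females; the groups did not overlap and the log2 fold change was -1.29 (adjusted p = 0.849, SE 0.53). Il18rap, the accessory chain of the IL-18 receptor on T and NK cells, was at -5.79 in the CRC male, -4.51 and -5.34 in the CRC females, -7.17 and -6.92 in the CRC + E171 males and -6.53 and -7.47 in the CRC + E171 females, not well above background on any CRC + E171 array, and so at least 1.65-fold lower, again without overlap (fitted log2 fold change -1.81 (adjusted p = 0.849, SE 0.68)). Il16, a chemoattractant for CD4+ cells, was at -3.25 in the CRC male, -3.90 and -2.59 in the CRC females, -3.94 and -3.81 in the CRC + E171 males and -4.38 and -4.85 in the CRC + E171 females, with -1.0 (adjusted p = 0.849, SE 0.44). Il1f10, the gene of IL-38, was at -7.18 in the CRC male, -3.63 and -6.42 in the CRC females, -8.47 and -7.90 in the CRC + E171 males and -8.33 and -5.40 in the CRC + E171 females, with -1.78 (adjusted p = 0.849, SE 0.78), and was well above background on 1 array of each group, so its change rests on CRC female 1. Il1b was at -4.59 in the CRC male, -4.95 and -4.39 in the CRC females, -5.11 and -4.72 in the CRC + E171 males and -4.99 and -4.69 in the CRC + E171 females at 21 days, and Il6 at -6.24 in the CRC male, -7.60 and -7.22 in the CRC females, -8.47 and -3.51 in the CRC + E171 males and -8.35 and -7.84 in the CRC + E171 females, with CRC + E171 male 2 highest. The 4 called members, Il21r, Il18rap, Il16 and Il1f10, were still DEG without the 3 arrays, where 8 members were in all, 1 up-regulated, among 852 of all genes. None of the 3 is an array of 21 days, so that fit leaves these fold changes as they are and alters only the spread. Over 18 alternatives the call was lost in 8 for Il16, 6 for Il1f10, 4 for Il21r and 2 for Il18rap.

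Of the lymphocyte genes among the members, the 8 that were tested moved with the T cell marker list (10 genes, among them Cd3e, Cd3d, Cd3g, Cd2, Cd5, Cd6, Lck, Cd8a and Cd4). At 21 days this list was at -1.59 to -0.64 in CRC + E171 and at -1.67, 0.08 and 1.47 in CRC. Over the 31 arrays 8 members were set against the list, and all 8 correlations passed (each permutation p = 1e-05, the smallest 100000 resamples can give, for Pearson's r and Spearman's rho; adjusted p = 2.6e-05 over 21 relations). Il2rb, the shared beta chain of the IL-2 and IL-15 receptors, had r = 0.99 (rho = 0.97). Il2rg had r = 0.94 (rho = 0.92), Il21r 0.89 (0.85), Il7r 0.89 (0.85), Il10ra 0.84 (0.82), Il12rb1 0.83 (0.82), Il16 0.83 (0.81) and Il18r1 0.79 (0.79). Leaving out the 2 arrays farthest from the median of the list gave r from 0.80 to 0.98, and deviations from the group means gave r from 0.81 to 0.99. Within CRC at 2 days the list ran from -2.01 to 2.00. Whether Il21r and Il16 at 21 days differ beyond the list was not tested.

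**Figure D4:**
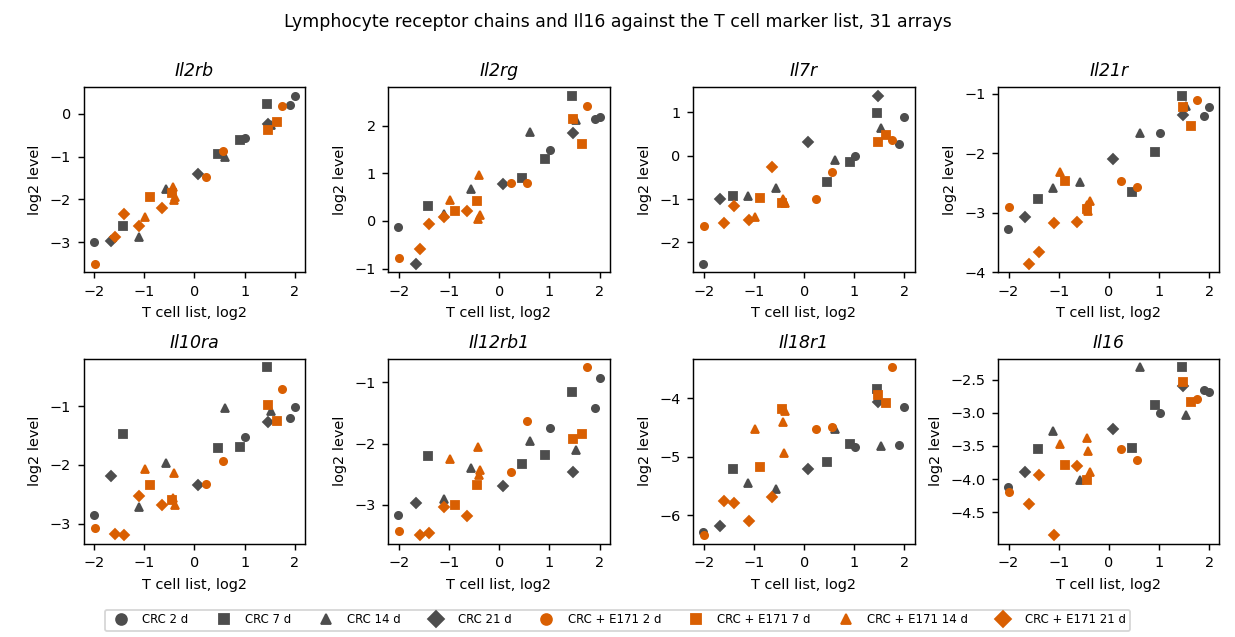
Log2 level of 8 genes (y axis) against the T cell marker list (x axis, log2, median over 10 genes relative to each gene's mean) on 31 arrays; the shape gives the day and grey or orange the treatment. Points follow a line in all 8 panels (r from 0.79 to 0.99), and the CRC + E171 diamonds of 21 days lie at the left.

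Against the neutrophil list, no pooled correlation is given, since 3 arrays form a separate cluster. Over the other 28 arrays 13 members were tested, and 6 passed after adjustment over the 21 relations: Il11 (r = 0.73, rho = 0.68, permutation p = 5e-05 and 1.30e-04, adjusted p = 1.17e-04), Il1rl1 (r = 0.58), Il1a (0.52), Il1b (0.52), Il22 (0.51) and Il17a (0.46), with adjusted permutation p from 1.17e-04 to 0.0209 for r. Their rho lay between 0.36 (Il1a, adjusted p = 0.0787) and 0.68. Il1a was well above background on 9 of the 31 arrays and met the filter through CRC at 7 days alone, so most of its values here lie at background and its r supports nothing. Without the 2 arrays farthest from the median, r of these 6 was 0.36 to 0.59. Il6 (r = 0.34, permutation p = 0.0764), Il33 (0.21), Il18 (0.17), Il24, Il19, Il1rn and Il1r2 did not pass for r, while the rho of Il19 (0.50, adjusted permutation p = 0.0135) and of Il1rn (0.46, adjusted permutation p = 0.0261) passed. Taken as deviations from the group means, r was 0.62 for Il11, 0.47 for Il1a, 0.43 for Il22, 0.37 for Il1rl1, 0.36 for Il1b and 0.23 for Il17a.

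Over time in the CRC groups, the F test of limma between days called none of the 71 members after adjustment (smallest adjusted p = 0.493), and 19 of 71 (26.8%) at an unadjusted p under 0.05, against 9.93% of all genes. This count was 6 without CRC 7 days male 1, 5 without CRC 7 days male 2 and 6 without the 3 arrays, with 970, 1481 and 1427 of all genes. From 2 to 7 days 20 members were DEG, 19 up- and 1 down-regulated, against 13.5% of all genes. These contrasts use the CRC arrays of 7 days that also enter the E171 comparison, so both share the 2 male arrays. Il11 rose by 3.51 (SE 1.05), Il6 by 4.66 (SE 1.66), Il6st by 1.11 (SE 0.37), Il1r1 by 1.31 (SE 0.43), Il33 by 1.84 (SE 0.78) and Il17a by 2.03 (SE 0.75); Il20ra, not well above background on any CRC array of 2 days, was at least 3.95-fold higher and Il23r at least 1.52-fold. CRC at 2 days did not meet the filter on low signal for Il6 or Il17a, so their rises start close to background. The gene that was lower was Il17rc, a chain of the IL-17A receptor, with a log2 fold change of -0.59 (SE 0.28). Of the 20, 2 were DEG without the 3 arrays, Il23r and Il31ra. Il23r met the filter on low signal through CRC at 7 days alone, so the filter favoured its call. Il31ra lay at -7.10 and -6.48 in the males and -7.18 and -6.61 in the females at 2 days and at -5.70 and -6.22 in the males and -5.86 and -5.68 in the females at 7 days, so that no CRC array of 7 days overlapped those of 2 days.

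From 7 to 14 days in CRC 11 members were DEG (4 up, 7 down), against 7.4% of all genes; without the 3 arrays 5 were, among 784 of all genes, 1 of them shared with the 11 (Il31ra), so that Il10, Il15ra, Il4ra, Il6ra, Il18 and Il15 were no longer called. Il10 was at -2.73 and -3.35 in the males and -5.58 and -4.97 in the females at 7 days and at -5.47 and -6.47 in the males and -5.63 and -7.47 in the females at 14 days, a log2 fold change of -2.10 (adjusted p = 0.488, SE 0.56). CRC at 14 days did not meet the filter on low signal for Il10, so this fold runs close to background. Il15ra, which presents IL-15 to lymphocytes, changed by -0.78 (SE 0.18), Il4ra by -0.99 (SE 0.37) and Il6ra by -0.69 (SE 0.24), while Il18 and Il15 rose by 1.36 (SE 0.64) and 1.24 (SE 0.50). Compared with 2 days, 2 members were DEG at 14 days, against 2.55% of all genes, and 2 at 21 days, against 3.58%; without the 3 arrays, none of which is an array of these groups, there were 4 and 5, among 858 and 1159 of all genes, the earlier 2 included each time. Il18bp, the soluble binding protein that neutralises IL-18, was in both: its CRC levels were -0.44 and 0.91 in the males and 1.73 and 1.92 in the females at 2 days, -0.85 and -2.46 in the males and -0.70 and -1.47 in the females at 14 days and -1.34 in the male and -0.64 and -0.57 in the females at 21 days, without overlap with 2 days. Its log2 fold changes were -2.40 (adjusted p = 0.878, SE 0.65) at 14 days and -1.88 (adjusted p = 0.9, SE 0.70) at 21 days. The other 2 calls were Il23r at 14 days, where no CRC array of either day was well above background, so no fold is given, and Il1f10 at 21 days, at least 1.49-fold higher.

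In the CRC + E171 groups the F test again called none after adjustment (smallest adjusted p = 0.161, limma), and 9 of 71 (12.7%) at an unadjusted p under 0.05, against 14.6% of all genes, led by Il10, Il34 and Il18bp; without the 3 arrays 17 did, with 4606 of all genes. In that fit 7, 12 and 11 members were DEG at 7, 14 and 21 days against 2 days, of which 4, 6 and 6 were also DEG over all arrays. Over all genes that fit called 831, 2880 and 1928. From 2 to 7 days 4 members were DEG, against 3.32% of all genes: Il10 rose by 1.80 (SE 0.56), from -6.59 and -8.06 in the males and -6.14 and -5.95 in the females to -5.38 and -5.49 in the males and -5.23 and -3.45 in the females, and Il17f (-1.21, SE 0.56), Il21 (-1.11, SE 0.47) and Il3 (-1.49, SE 0.64) were down-regulated; Il3 was well above background on 1 of 4 arrays of 7 days and met the filter through the 2-day group alone, so the filter favoured its call. CRC + E171 at 2 days did not meet the filter for Il10, so its rise starts close to background. Il17f was up-regulated over the same days in the CRC groups (1.40, SE 0.56), where Il21 and Il3 were not DEG; the difference between these changes over time was not tested. At 14 days 9 members differed from 2 days, against 9.68% of all genes: Il1r1 (1.05, SE 0.43) and Il23r, the latter well above background on 1 array of 14 days and on none of 2 days, were up-regulated, and Il21 (-1.38, SE 0.47), Il17rb (-0.71, SE 0.23), Il18bp (-1.82, SE 0.65), Il1rn (-1.69, SE 0.68), Il12b (-0.95, SE 0.41), Il3 and Il17f, at least 2.18-fold, were down-regulated. At 21 days 6 differed, against 7.46%, all down-regulated: Il18bp (-2.15, SE 0.65), Il18r1 (-1.13, SE 0.50), Il18rap, at least 1.3-fold, Il12rb1 (-1.22, SE 0.44), Il21r (-1.2, SE 0.49) and Il20 (-1.36, SE 0.61). In CRC + E171 the T cell marker list lay at -1.99 to 1.75 at 2 days and at -1.59 to -0.64 at 21 days, and its part in these calls was not tested. From 7 to 14 days only Il13 was DEG (0.97, SE 0.44), against 2.65% of all genes, and without the 3 arrays it was not, while Il15, Il1rn and Il23r were. Il34 was at -0.45 and 0.20 in the males and -0.53 and -1.38 in the females at 7 days, -0.39 and -0.12 in the males and -0.94 and -1.74 in the females at 14 days and -0.06 and 0.42 in the males and 0.63 and 0.86 in the females at 21 days, with its lowest array at 14 days and its highest at 21 days (F test adjusted p = 0.182, limma). Il4ra was within the top 8 of this F test (adjusted p = 0.281, limma), with its 21-day arrays at -2.95 and -2.98 in the males and -3.13 and -3.12 in the females.

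The IL-18 system shows the members side by side. Il18 levels were 4.93 and 3.62 in the CRC males, 2.21 and 2.28 in the CRC females, 4.28 and 4.47 in the CRC + E171 males and 2.16 and 1.89 in the CRC + E171 females at 2 days, so males lay above females in both groups; at 7 days this held for CRC + E171 and not for CRC. Il18bp at 2 days was -0.44 and 0.91 in the CRC males, 1.73 and 1.92 in the CRC females, 0.17 and -2.10 in the CRC + E171 males and 2.16 and 2.20 in the CRC + E171 females, with the females above the males, and a log2 fold change with E171 of -0.42 (SE 0.65). The receptor chain Il18r1 was at -5.21 in the CRC male, -6.18 and -4.07 in the CRC females, -5.79 and -5.68 in the CRC + E171 males and -5.75 and -6.09 in the CRC + E171 females at 21 days, where the log2 fold change was -0.67 (SE 0.54).

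Slides held the CRC arrays of 1 day with the CRC + E171 arrays of another, which allowed a fit within slides of the E171 effect averaged over days 7 and 21, and likewise over days 2 and 14. Over 7 and 21 days 10 of 71 members (14.1%) were DEG, against 4.46% of all genes, with no adjusted p under 0.05 (smallest 0.509, limma). 9 were down-regulated: Il1r2 (-1.84, SE 0.72), Il1f10 (-1.65, SE 0.57), Il18rap (-1.49, SE 0.46), Il20rb (-1.17, SE 0.54), Il10 (-0.89, SE 0.41), its receptor chain Il10ra (-0.76, SE 0.36), Il23r (-0.73, SE 0.34), Il16 (-0.65, SE 0.31) and Il4ra (-0.62, SE 0.27). Among these, Il23r was well above background on 4 arrays in all and on no CRC + E171 array of 7 days. It met the filter on low signal through CRC at 7 days alone, so the filter favoured its call. Il1f10 was not well above background on any CRC + E171 array of 7 days, nor Il18rap on any of 21 days. The values of Il23r, Il1f10 and Il18rap are therefore fitted against signal at background and give no measured size. Il22ra1 was up-regulated (0.83, SE 0.35). Il6 and Il11, the widest changes of 7 days, did not pass within slides, at -2.33 (SE 1.32) and -1.57 (SE 0.82). Without CRC 7 days male 2 the count was 3, without either CRC female of 7 days 22, and without the 3 arrays 2. The matching counts over all genes are not reported here, so no share stands beside these. Over 2 and 14 days only Il13 was DEG, at 0.76 (adjusted p = 0.893, SE 0.32), against 2.28% of all genes. The position of an array on the slide went with the treatment, and these cannot be told apart.

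The IL-36 genes of the IL-1 family are made by stratified epithelium, and their highest values lay on the 2 arrays highest in squamous markers. The squamous list (Krt5, Krt14 and 10 other genes) was at 7.39 on CRC 7 days male 1, 6.33 on CRC 21 days female 1, 3.0 on CRC + E171 21 days female 1, 2.76 on CRC + E171 14 days male 2 and 1.95 on CRC + E171 2 days male 2, and at most 0.46 on the other 26. Il1f5, the IL-36 receptor antagonist, was at 3.33 and -0.01 on the first 2 of these, and at -8.74 to -2.48 on all others. Il1f6 (IL-36 alpha) was at 2.98 and 2.17 there and at -8.60 to -1.83 elsewhere, and Il1f8 (IL-36 beta) at 1.17 and -0.34, against -7.81 to -2.80. Il1f10 was highest on the same arrays, at -3.89 and -3.63, which includes the array that carries its call at 21 days. Il20ra and Il20rb were also high on CRC 21 days female 1, at -4.0 and -0.99. On CRC + E171 21 days female 1, 14 days male 2 and 2 days male 2, Il1f5 was at -3.19, -8.12 and -2.48. Il1f8 reached -2.80 on CRC + E171 14 days female 2, where the squamous list was at -0.69. The part of squamous tissue in these levels was not tested.

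**Figure D5:**
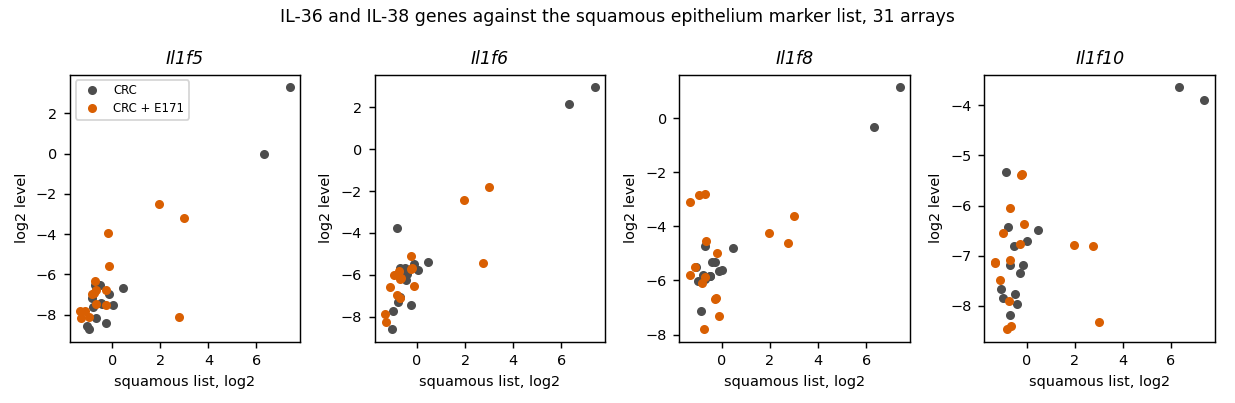
Log2 level of Il1f5, Il1f6, Il1f8 and Il1f10 (y axis) against the squamous epithelium list (x axis, log2) on 31 arrays, CRC in grey and CRC + E171 in orange. The 2 CRC arrays with the highest list values, 7.39 and 6.33, have the highest levels in all 4 panels.

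Genes downstream of or beside the members were taken from 6 fixed lists, and their counts stand beside the 12.4% of all genes that were DEG at 7 days. On that day none of 11 JAK and STAT genes was DEG, 1 of 8 SOCS genes was, Socs3, the feedback inhibitor of gp130 signalling (-1.58 on the log2 scale), and 1 of 18 genes of IL-1 and IL-17 receptor signalling, the inhibitory kinase Irak3 (-1.02). Of 8 genes that mature IL-1 beta and IL-18, 5 were up-regulated with E171, Nlrp6 (2.83), Nlrc4 (1.43), Aim2 (1.25), Casp1 (1.25) and Gsdmd (0.88). Of their substrates, neither DEG, Il18 was higher with E171 and Il1b lower. Of 13 partner chains and related cytokines without an Il symbol, 5 were down-regulated, among them Csf3 (-5.25), the granulocyte growth factor, Osm (-2.40), Csf2rb2 (-1.32) and Csf1 (-0.59). Of 14 epithelial genes that respond to IL-17 and IL-22, the neutrophil attractants Cxcl5 (-4.32) and Cxcl1 (-3.59) and Lcn2 (-3.54) were down-regulated, and Pigr (2.04), Fut2 (1.06) and Duox2 (1.05) up-regulated. Without the 3 arrays none of these was DEG at 7 days, and Casp4 of the maturation list was. On the other days at most 1 gene of a list was DEG with E171 over all arrays. Without the 3 arrays, 6 of the 14 epithelial response genes were DEG at 14 days (2 up, 4 down: Cxcl1, Cxcl5, Reg3b, Reg3g, S100a8 and S100a9) and 3 at 21 days, all up-regulated (Duox2, Duoxa2 and Saa1), among 2796 and 852 of all 19837 genes. Over all arrays none of the 72 listed genes had an adjusted p under 0.05 at any day.

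Il13ra1, a chain of the IL-4 and IL-13 receptor, ranged from 2.14 to 3.61, Il17rd, a receptor chain of the IL-17 family, from -2.47 to -1.54 and Il10rb from 2.25 to 4.05 over the 31 arrays, and none was DEG with E171 at any day. Different probes of a gene disagreed in direction at 7 days in Il17rd (from -0.30 to 0.55) and Il1rap (from -0.31 to 0.64), and no probe of these passed a p under 0.05; Il1rap enters only the counts.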

How the data were processed

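Distal colon RNA of 31 mice was hybridised to one-colour Agilent arrays, 1 per mouse, and the members, gene lists and tests were chosen with earlier results of these data known. The deposited signal is the intensity that the authors' scanner software had background-subtracted, not normalized between arrays. The authors also deposited a matrix of log2 values, used as an alternative, on the log2 scale by its correlation with the scanner values (0.991 to 1.000 per array, column medians 9.43 to 9.67); its normalization method is not given in the sources used here, and it has no row for 3 tested members.

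Each array was scaled by subtracting its own 75th percentile on the log2 scale. Spots with an outlier flag were dropped. A probe entered the tests if some group had a mean unscaled log2 signal of at least 4 and at least 60% of its arrays with an unflagged spot well above background. Probes were matched to RefSeq genes and averaged per gene. One limma model (limma 3.58.1, R 4.3.3) over the 8 groups gave the contrasts between treatments and days. A DEG has a linear fold change of 1.5 or more and an unadjusted p under 0.05; the study's methods write this fold cut-off as Log2FC, which was run as an alternative. The p-values were adjusted by Benjamini-Hochberg over 19837 genes. The limma p-values rest on the spread between mice within groups, estimated jointly over all groups of a fit and moderated across genes. The permutation p-values of the correlations refer to arrays pooled over treatments and days. The fit was tested on simulated data. Correlations used 100000 permutations, two-sided.

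The text names members that were DEG with E171 at a day, the 8 with the smallest p in each F test, and a fixed list of main cytokines and receptors. Some genes of the fixed lists are counted but not reported by name here. Alternatives were other normalizations and filters, the authors' values, covariates, blocks, array weights, fewer arrays and leaving out each array. Same-numbered mice of a sex and day correlated between treatments at -0.18 to 0.48, with 8 of 15 pairs over 0.1, so the numbers were not taken to pair the mice.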

Additional observations from a re-analysis of the deposited data

Results flagged for a closer look

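In 5 genes the E171 effect at 7 days differed between males and females by a limma test of the difference itself, adjusted over all genes. The difference, males minus females on the log2 scale, was -8.19 for Il6, -5.07 for Il11, -3.33 for Il10, -2.46 for Il1r1 and 2.87 for Il18. Each group of a sex held 2 mice. None of the 5 passed the adjusted threshold in a fit of the 8 arrays of 7 days alone, and over the alternatives their highest adjusted p was 0.14 (Il1r1), 0.143 (Il11), 0.193 (Il18), 0.211 (Il10) and 0.217 (Il6). The CRC males of 7 days were also the 2 arrays with the highest neutrophil list, at 4.22 and 5.29, and the part of this in the difference was not tested. By Dixon's test of 1 array apart from the other 3, 30 of 497 pairs of gene and group held an array far from its group (6.04%), where chance flags about 1 in 20. The test cannot find 2 arrays that are high together, as the CRC males of 7 days are. CRC + E171 14 days male 2 lay above its group in Il11 at 0.26, Il1f10 at -6.80, Il1r1 at 1.52 and Il1r2 at -0.47 and below its group in Il22ra1 at -3.40. CRC + E171 2 days female 2 lay below its group in Il17d at -0.47. CRC + E171 2 days male 1 lay above its group in Il19 at -4.50. CRC + E171 21 days female 1 lay above its group in Il15 at 1.06, Il1f5 at -3.19 and Il20rb at -2.70. CRC + E171 21 days female 2 lay above its group in Il17f at -4.23 and Il17rd at -1.54 and below its group in Il17rb at -3.63. CRC + E171 21 days male 1 lay below its group in Il17d at 0.17. CRC + E171 21 days male 2 lay above its group in Il17ra at -2.61 and Il6 at -3.51. CRC + E171 7 days female 2 lay above its group in Il10 at -3.45 and below its group in Il7 at -5.33. CRC + E171 7 days male 2 lay above its group in Il20ra at -4.96. CRC 14 days female 2 lay below its group in Il1rl2 at -1.61. CRC 14 days male 1 lay above its group in Il31ra at -6.35. CRC 2 days male 1 lay above its group in Il17rc at -0.72 and Il34 at 0.48 and below its group in Il13ra2 at -3.91 and Il22ra2 at -1.52. CRC 2 days male 2 lay below its group in Il13 at -5.56. CRC 7 days male 1 lay above its group in Il1f5 at 3.33 and below its group in Il12b at -4.71 and Il7 at -6.72. CRC 7 days male 2 lay above its group in Il12rb1 at -1.15.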

How the results depend on the processing

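With all arrays and both sexes no member passed the adjusted threshold for E171 at any day, whereas 9 did at 7 days without CRC female 1, 5 without CRC female 2 and 1 (Il31ra) without the arrays with acinar transcripts. Most calls at 7 days were lost without the 3 arrays high in neutrophil genes, 2 of which are CRC males of that day. The cause of each shift below was not tested. Counts over all genes are not reported here for most of these fits, so the counts of members have no share beside them. In the F test between days, array weights called 22 members among 5190 genes in CRC, against 19 among 1970 without them (unadjusted p under 0.05). With an adjusted p under 0.05 the counts of DEG members were 0 at 7, 14 and 21 days and within slides, and 5 for the difference between sexes. With the fold threshold of 1.5 on the log2 scale, chosen after seeing the data, they were 7, 0 and 2 at 7, 14 and 21 days, and 2 and 0 within slides over 7 and 21 and over 2 and 14 days. With array weights they were 5, 2, 17 and 7 at 2, 7, 14 and 21 days, 3 and 17 within slides over 7 and 21 and over 2 and 14 days, and 5 (CRC) and 1 (CRC + E171) between days. Fits of only the groups compared gave 4, 4, 10 and 9. Without the 3 arrays high in neutrophil genes, chosen after seeing the data, the counts were 4, 2, 11 and 8, and 2 in each comparison within slides. Without the arrays with acinar transcripts, also chosen afterwards, they were 1 at 2 days and 5 at 14 days, and scan day as a block gave 7 at 21 days. At 2 days quantile normalization, normexp and the authors' values gave 1 each. At 14 days normexp gave 1, the authors' values 7 and the highest probe 6. Over 7 and 21 days within slides normexp gave 2 and no slide term 6. With the replicate block the counts were 1, 17, 5 and 6 at 2, 7, 14 and 21 days. Leaving out 1 array gave 0 to 3 at 2 days, 7 to 30 at 7, 2 to 6 at 14 and 2 to 4 at 21 days, 3 to 22 and 0 to 10 within slides, 16 to 26 for the sexes and 0 between days. Among the members called at a day, direction turned at 7 days for Il31ra under normexp (0.013) and for Il1r1 without the 3 arrays (0.20); among all 71 members the latter fit turned 27 at 7 days and 7 at 14 days. The difference between sexes could not be fitted without the 3 arrays.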
